A study of Mus musculus with 2 samples.

Results

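The 10 genes described here encode NF-κB transcription factors, proteins of the IκB family and ubiquitin enzymes of the pathway, most of which NF-κB itself is known to induce. They were chosen by symbol (Nfkb1, Nfkb2, Rela, Relb, Nfkbia, Nfkbib, Nfkbie, Bcl3, Tnfaip3 and Birc3), and all 10 were found among the 14197 genes of the deposited table. 4T1 is a murine mammary carcinoma line, labelled wild type, and the study asked by RNA-sequencing how astragalin (AS), a plant flavonoid, acts on its growth. The AS group was 1 library from cells kept with 20 μM AS for 24 h, and the control was 1 library from cells given the vehicle. The library sizes implied by the deposited values were 44909684 reads for AS and 50820728 for the vehicle. The study's methods describe a 4T1 subline that carries a luciferase reporter, and whether it was used for these libraries is not given. Since each condition is a single library, no difference could be checked between replicates and no p-value is given, and the intervals cover counting error only. In bulk RNA, fewer cells that express a gene and less RNA per cell cannot be told apart.

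NF-κB dimers are held in the cytoplasm by IκB proteins. Signals from cytokine receptors activate the IκB kinase, which marks IκB for degradation and lets p50 and RelA dimers enter the nucleus, while a slower branch that depends on the kinase NIK processes p100 and releases RelB. Among the genes switched on are those of IκBα, A20, cIAP2, p105, p100 and RelB, so that the pathway sets its own inhibitors, and in mammary tumour cells it is known for control of survival genes and of secreted cytokines. NF-κB is regulated mainly at the level of protein, and the present measurements are of RNA alone.

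The upstream sequences of the inducible inhibitors are shown because their κB elements are the basis of this feedback. RefSeq promoter windows (GRCm38.p6) were found for 8 of the 10 genes, and among those searched none belonged to Nfkb1 or Relb. Searched on both strands in the 250 bases before each start, the 10-base κB consensus occurred in 6 of 11 windows of these 8 genes. These 6 belong to Nfkb2 (each of its windows), Nfkbia, Nfkbie and Tnfaip3. Of all 32851 windows of the same length 7.25% held it, and of the 12391 windows of genes analysed here 8.89%. The windows of Bcl3, Birc3, Nfkbib and Rela do not hold these letters. A match describes the letters only. The Nfkbia window, chr12:55492648-55492897 on the minus strand, held 1 match, which begins 29 bases before the start and is in capitals here.
Nfkbia: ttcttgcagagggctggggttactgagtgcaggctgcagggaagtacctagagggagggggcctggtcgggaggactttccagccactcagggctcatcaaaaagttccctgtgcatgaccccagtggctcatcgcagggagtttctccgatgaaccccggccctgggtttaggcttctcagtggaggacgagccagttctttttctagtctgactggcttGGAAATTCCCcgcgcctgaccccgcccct

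For the other 3 genes, stretches of 30 bases are given with 1 match each in capitals. Nfkbie had 1 match and the window of Tnfaip3 shown here 2 (and its other window 0). The Nfkb2 window shown here had 3, of which some overlap. The other windows of Nfkb2, which overlap each other, had 1 match each. In the GENCODE annotation the Nfkb2 window, and so its stretch, lies wholly in exons (250 of 250 bases). The stretch of Tnfaip3 lies inside the annotated gene, and 110 of the 250 bases of its window are in exons. Both stretches thus lie inside the annotated gene, upstream of the RefSeq start used here and of the starts of the same gene's other windows. The matches shown for Nfkbia and Tnfaip3 are read on the other strand, that of Nfkbie on the strand of the gene and that of Nfkb2 on both. The stretches lie at chr10:19015411-19015440 (minus strand) for Tnfaip3, where the match begins 12 bases before the start, at chr17:45555584-45555613 (plus strand) for Nfkbie, where it begins 106 bases before it, and at chr19:46304688-46304717 (plus strand) for Nfkb2, where it begins 39 bases before it.
Tnfaip3: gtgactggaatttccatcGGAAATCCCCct
Nfkbie: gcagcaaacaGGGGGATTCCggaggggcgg
Nfkb2: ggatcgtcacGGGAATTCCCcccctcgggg

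The RNA of the 10 genes stood between 0.743 and 1.20 times its control value in the AS library. In either direction, 0 genes passed a log2 fold change of 1, the fold threshold of the study's methods. The methods joined it to a limit on significance, which was not applied here. Fold changes were computed from RPKM (the number of reads divided by exon length and library size), as the log2 of AS over vehicle with 0.1 RPKM added to each. In the whole set of genes 0.972% passed that threshold, 0.662% higher and 0.31% lower, so 0 of 10 is near the background and is not a result about these genes. At a change of 1.5-fold (0.58 on the log2 scale) again 0 of the 10 genes passed, where 5.57% of all genes did. This is the other fold threshold of the methods, given there for array spots and also with a limit on significance. Beyond it the direction was counted as well. Of all genes 505 were higher and 286 lower, a split that depended on the scaling, with 384 and 403 once the median of all genes was set to 0 and 658 and 223 under TPM. The 10 log2 fold changes ran from -0.42 for Tnfaip3 to 0.25 for Relb, 6 were above 0 and 4 below, and their median was 0.08 against 0.07 over all genes. For comparison, the middle 50% of all genes lay between -0.10 and 0.23 and the middle 90% between -0.41 and 0.51. The summed RPKM of the 10 genes was 105 under AS against 101 under vehicle.

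The 4 NF-κB subunit genes had log2 fold changes above 0, as did 60.9% of all genes. The sign was the same under every other scaling tried, but with TMM that of Nfkb1 was only 0.016, and the intervals of the ratio for Nfkb1 (0.965 to 1.06) and Relb (0.983 to 1.32) then included 1. Nfkb1, which encodes p105 and its product p50 (chromosome 3, 135584655 to 135691547, minus strand of GRCm38), stood at 6.34 RPKM in the AS library against 5.98 in the control, on 3436 and 3668 reads. Its ratio of AS to vehicle, taken on reads scaled to each library, was 1.06 (95% Clopper-Pearson interval 1.01 to 1.11). It lay at percentile 52.8 of the fold changes of all genes. That places it in the middle of all genes measured.

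Nfkb2 encodes p100, the precursor of p52 (chromosome 19, 46304320 to 46312385, plus strand). It stood at 26.3 RPKM in the AS library against 23.5 in the control, on 5410 and 5483 reads. The ratio was 1.12 (1.08 to 1.16), and the counting intervals of the 2 levels did not overlap. Rela, the gene of the transactivating subunit p65 (chromosome 19, 5637483 to 5648130, plus strand), stood at 16.5 RPKM in the AS library against 14.5 in the control, on 2272 and 2270 reads. The ratio was 1.13 (1.07 to 1.20), again with counting intervals of the levels that did not overlap, although those of Rela did with TMM or with the median of all genes set to 0. Exons of Nfkb2 share 531 bases with AC114539.1 and 299 with Psd (0.807 RPKM with the vehicle) on the opposite strand. Both genes were within the middle 50% of all genes, at percentiles 65.0 and 68.1.

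Relb encodes the partner of p52 in the slower branch (chromosome 7, 19606217 to 19629438, minus strand). It stood at 2.13 RPKM under AS against 1.78 under vehicle, from only 372 and 352 reads. It had the highest log2 fold change of the 10 genes, 0.25, and lay at percentile 77.1 of all genes. The interval of its ratio of 1.20 was wide, from 1.03 to 1.39, and it holds the ratios of the other 3 subunit genes.

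The IκB genes did not go 1 way. Nfkbia, the gene of IκBα, which is the inhibitor most quickly degraded and resynthesised (chromosome 12, 55489410 to 55492647, minus strand), stood at 32.2 RPKM in the AS library against 30.7 in the control, on 2329 and 2513 reads. The ratio was 1.05, and its interval from 0.991 to 1.11 includes 1. Its log2 fold change of 0.07 was at percentile 50.4, next to the median of all genes. Nfkbie, the gene of IκBε (chromosome 17, 45555703 to 45563169, plus strand), stood at 5.73 RPKM under AS against 5.15 under vehicle. The ratio was 1.11 (1.01 to 1.23), from 783 and 797 reads.

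Nfkbib was lower in the AS library. It encodes IκBβ, which NF-κB is not known to induce as IκBα is (chromosome 7, 28758251 to 28767512, minus strand). It stood at 6.06 RPKM in the AS library against 6.85 in the control, on 590 and 755 reads. The ratio was 0.884 (0.793 to 0.986), at percentile 17.2 of all genes. Its exons share 314 bases with Ccer2 and 42 with Sirt2 on the opposite strand. The strand setting of the counting is not given in the sources used here, so reads of such antisense genes may be included.

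Bcl3, a nuclear IκB protein that binds p50 and p52 dimers (chromosome 7, 19808462 to 19822770, minus strand), had the lowest level of the 10, at 0.972 RPKM under AS against 1.10 under vehicle. With 108 and 138 reads its ratio of 0.886 had the widest interval, from 0.682 to 1.15. No difference of Bcl3 between the libraries was detectable at this depth, and 161 of its exon bases are shared with the antisense gene Gm16175.

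Tnfaip3 had the lowest log2 fold change of the 10 genes. It encodes A20, an enzyme that edits ubiquitin chains and ends signalling from the tumour necrosis factor receptor and from Toll-like receptors (chromosome 10, 19000910 to 19015657, minus strand). It stood at 6.63 RPKM in the AS library against 8.93 in the control, on 2152 and 3279 reads. The ratio was 0.743 (0.703 to 0.784). Among the 9 other genes, the interval of Bcl3 alone overlapped with this. The log2 fold change of -0.42 was at percentile 4.54 of all genes and was short of both thresholds.

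Birc3 encodes cIAP2, a ubiquitin ligase of the tumour necrosis factor receptor complex (chromosome 9, 7848699 to 7873186, minus strand). It stood at 1.75 RPKM in the AS library against 1.93 in the control, on 393 and 491 reads. The ratio was 0.906, and the interval from 0.791 to 1.04 includes 1.

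Some of these intervals depend on how the libraries are scaled to each other. The AS values were shifted by -0.068 on the log2 scale with TMM and by -0.066 when the median of all genes was set to 0. With either shift, or with upper-quartile scaling, the intervals of the ratio for Nfkb1, Relb and Nfkbie included 1, and that of Birc3 did not (0.755 to 0.989 with TMM). With TPM the interval of Nfkbib included 1 and that of Nfkbia did not (1.03 to 1.16). The intervals of Nfkb2, Rela and Tnfaip3 excluded 1, and that of Bcl3 included it, under each of these scalings.

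**Figure D1:**
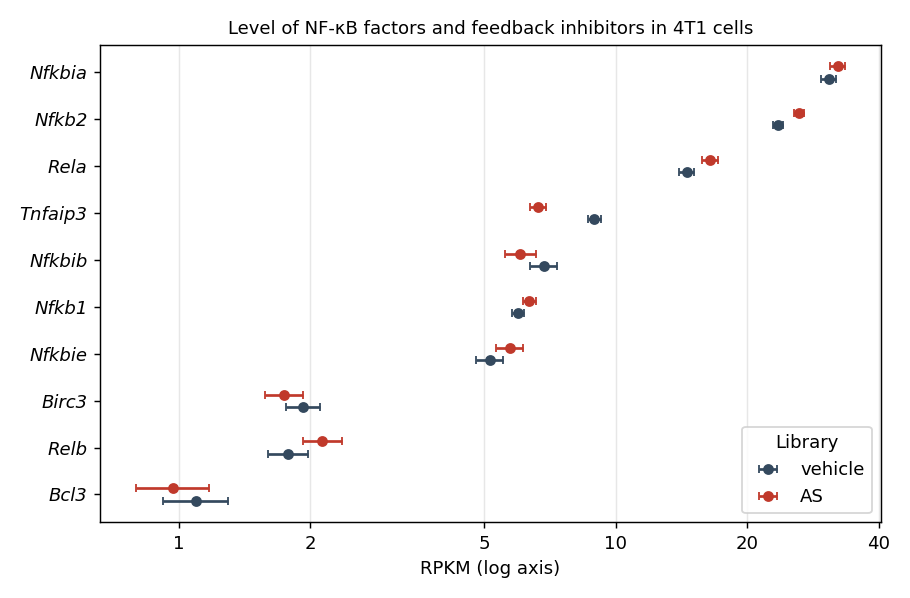
RPKM of each of the 10 genes (horizontal log axis) in the vehicle library (dark) and the AS library (red), with bars for the 95% Poisson interval of the reads and 1 library per condition. Nfkbia, Nfkb2 and Rela are the highest in both libraries, and Tnfaip3 shows the widest gap, 8.93 against 6.63.

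**Figure D2:**
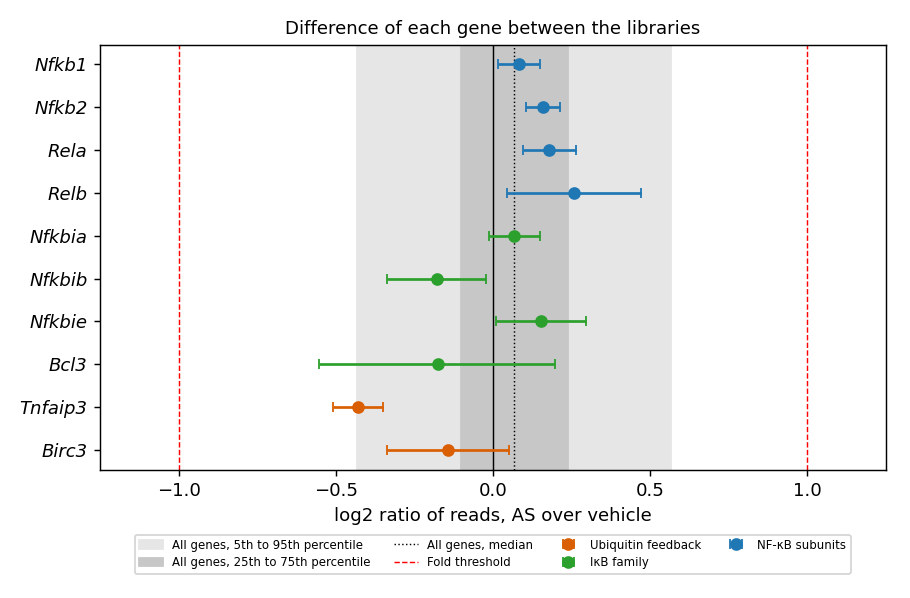
log2 ratio of reads, AS over vehicle, scaled to each library (horizontal axis), with 95% Clopper-Pearson intervals, coloured by role; the grey bands hold the middle 50% and the middle 90% of all genes and the dotted line is their median. All 10 points are far inside the red threshold lines at 1, the 4 subunit genes lie to the right of 0, and Tnfaip3 lies at the left edge of the wider band.

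In order of RPKM with the vehicle, Nfkbia was followed by Nfkb2, Rela, Tnfaip3, Nfkbib, Nfkb1, Nfkbie, Birc3, Relb and Bcl3. Of the 9 pairs of neighbours in this order, Birc3 and Relb alone had overlapping counting intervals. With AS the first 4 places and the last were held by the same genes. Tnfaip3, Nfkb1, Nfkbib and Nfkbie, at an RPKM of 6.63, 6.34, 6.06 and 5.73, then had intervals that overlapped from each to the next, as did Relb and Birc3. Nfkbia was at percentile 87.3 of the RPKM of all genes with the vehicle and Bcl3 at percentile 16.0.

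The order depends on the length by which the reads are divided. The RPKM of the authors used the exons of all annotated transcripts in sum, 12061 bases for Nfkb1, whereas its longest protein-coding transcript has 4117 bases. With the length of that transcript for every gene, a choice made after seeing the data, Nfkb1 moved from place 6 to place 3 with the vehicle, at 17.5 RPKM, next to Rela at 16.4. Rela, Tnfaip3 and Nfkbib each stood 1 place further down, and the other 6 genes kept their places. With AS, Rela kept place 3 at 18.63 RPKM, and Nfkb1 moved from place 5 to place 4 at 18.58. Tnfaip3 then went from place 4 to place 5, and Nfkbib and Nfkbie exchanged places 6 and 7. A length cancels in the ratio of reads between AS and vehicle, which is the same with either, but not exactly in the fold changes, to which 0.1 RPKM was added.

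Ratios between genes inside a library do not depend on the scaling between libraries. Nfkb2 exceeded Nfkb1 4.14-fold under AS against 3.93-fold under vehicle, and the first of these divided by the second was 1.05 (95% interval from the 4 read numbers 0.992 to 1.12). With the coding transcript as length the Nfkb2 to Nfkb1 ratios were 1.69 and 1.60. The Relb to Rela ratio was 0.129 under AS against 0.123 under vehicle, and the quotient was 1.06 (0.903 to 1.24). With the coding transcript as length the Relb to Rela ratios were 0.201 and 0.191. For both pairs the interval of the quotient includes 1.

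Relative to Rela, the inhibitors differed among themselves. The ratio of Nfkbia to Rela was 1.96 under AS against 2.11 under vehicle, a quotient of 0.926 (0.854 to 1.004). That of Nfkbie was 0.348 and 0.354, with a quotient of 0.982 (0.875 to 1.10). For Nfkbib it was 0.368 and 0.471, a quotient of 0.781 (0.691 to 0.882). Tnfaip3 had the lowest quotient of these genes. Its ratio to Rela was 0.403 under AS against 0.614 under vehicle, a quotient of 0.656 (0.606 to 0.710). With the coding transcript as length the Tnfaip3 to Rela ratios were 0.582 under AS and 0.887 under vehicle. Those of Nfkbia were then 1.76 and 1.91, of Nfkbie 0.384 and 0.392, and of Nfkbib 0.342 and 0.438. The quotients do not change with the length. The ratio of Birc3 to Birc2, the gene of the related ligase cIAP1, was 0.110 under AS against 0.129 under vehicle, a quotient of 0.857 (0.745 to 0.987). With the coding transcript as length the Birc3 to Birc2 ratios were 0.138 and 0.161. The ratio of Bcl3 to Nfkb1 was 0.153 under AS against 0.183 under vehicle (0.0699 and 0.0837 with the coding transcript as length), a quotient of 0.835 (0.647 to 1.08).

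**Figure D3:**
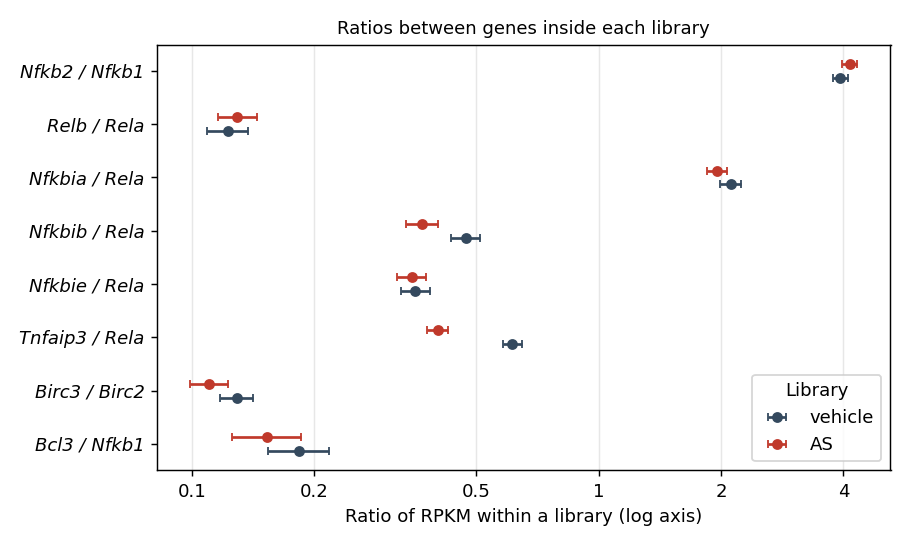
Ratio of the RPKM of pairs of genes inside the vehicle library (dark) and the AS library (red), on a horizontal log axis, with 95% Clopper-Pearson intervals of the reads. The intervals of the libraries are apart for Tnfaip3 to Rela (0.614 and 0.403) and Nfkbib to Rela (0.471 and 0.368) and overlap for the other pairs.

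Other genes of the pathway were described from 6 lists, of which 108 of 131 genes outside the 10 were analysed here. The other 23 were not among the deposited genes, so a difference in them could not be seen. The median log2 fold change of the 108 was 0.08, 80 were above 0 and 28 below, and over all genes 60.9% were above 0. The median over all genes, itself above 0, was exceeded by 59 of the 108. Of these genes 0 were beyond 1, whereas with 0 RPKM added Tnip3 was, at 1.15. At 1.5-fold, 2 were higher (background 3.56% of all genes) and 1 was lower (2.01%), so that neither share exceeds the background. With centring, upper-quartile scaling or TMM, 2 of these genes were lower, while the number lower among all genes also went up, from 286 to 403 with centring.

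Among the receptors and ligands that start the signal, 15 of 23 genes were analysed, with a median log2 fold change of 0.12 and 0 beyond 1.5-fold. Il1a, the gene of the cytokine interleukin-1α, was the most abundant, at 62.6 RPKM under AS against 53.2 under vehicle and a log2 fold change of 0.24. On the log2 scale Cd40 was lowest at -0.33 and Tlr2 highest at 0.35, from 138 and 161 reads in the AS library. The genes of both tumour necrosis factor receptors were close to the median of all genes, with log2 fold changes of 0.04 for Tnfrsf1a and 0.10 for Tnfrsf1b.

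The list of adaptors and ubiquitin enzymes held 27 analysed genes of 28, with a median log2 fold change of 0.07 and 0 beyond 1.5-fold. Card10, a scaffold that links receptors to Bcl10 and Malt1, was the most abundant at 46.5 under AS against 53.7 under vehicle, a log2 fold change of -0.21. Traf1, itself an NF-κB target, was highest at 0.33 on the log2 scale and Ube2n, the enzyme that conjugates ubiquitin for Traf6, was lowest at -0.21. Birc2 had a log2 fold change of 0.08.

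All 11 genes of the kinase list were analysed, with a median log2 fold change of 0.11. Of these 10 were above 0, where 60.9% of all genes were, and 6 exceeded the median over all genes. Tbk1 was the most abundant, at 18.3 RPKM under AS against 18.2 under vehicle. The 3 subunits of the IκB kinase complex, given here for their place in the pathway, had log2 fold changes of 0.11 for Chuk, 0.13 for Ikbkb and 0.36 for Ikbkg. The gene of the kinase NIK, Map3k14, had the lowest log2 fold change, -0.27, at 2.07 RPKM under AS against 2.52 under vehicle.

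Of the other Rel, IκB and coregulator genes 12 of 13 were analysed, with a median log2 fold change of -0.02. Copb2 was the most abundant of the list and had a log2 fold change of -0.16. It is a gene of the vesicle coat, and no role in the pathway is claimed for it here. Rel, the gene of the lymphoid subunit c-Rel, stood at 1.22 RPKM under AS against 1.26 under vehicle. Nfkbiz, an inducible nuclear IκB gene, stood at 8.97 RPKM under AS against 9.25 under vehicle.

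Among 17 other negative regulators, 15 were above 0, 12 exceeded the median over all genes, and the median log2 fold change was 0.10. Sqstm1, the gene of the autophagy receptor p62, which also binds Traf6 and is a known NRF2 target, was the highest and the most abundant of them. It stood at 260 RPKM in the AS library against 144 in the control, on 39253 and 24555 reads, a log2 fold change of 0.85 at percentile 98.8 of all genes. Among the partners of A20 in this list, the log2 fold changes were 0.05 for Tnip1, 0.07 for Tnip2 and 0.10 for Tax1bp1, close to the median of all genes, and 0.28 for Itch and 0.38 for Rnf11, above it. Tnip3 had a log2 fold change of 0.45, at a level of only 0.0959 RPKM under AS against 0.0433 under vehicle, on 47 and 24 reads. Cyld, the gene of another deubiquitinase, was at 0.13 on the log2 scale. Summed over this list the RPKM was 506 under AS against 376 under vehicle, of which Sqstm1 was the largest part.

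Of 41 NF-κB target genes 28 were analysed. The other 13 were not among the deposited genes, of which none was at 0, so a difference in them could not be seen. They were Cxcl2, Cxcl3, Cxcl10, Ccl2, Ccl5, Ccl7, Ccl20, Il6, Icam1, Bcl2a1b, Bcl2a1d, Cd83 and Saa3. The 28 had a median log2 fold change of 0.10, with 1 gene beyond 1.5-fold upward (3.56% of all genes) and 1 downward (2.01%). With centring, upper-quartile scaling or TMM, 2 were beyond it downward, the other being Ier3. Lcn2, the gene of the iron-carrier protein lipocalin 2, stood at 14.2 RPKM under AS against 8.72 under vehicle, a log2 fold change of 0.70. Nos2, the inducible nitric oxide synthase gene, stood at 5.12 RPKM under AS against 8.48 under vehicle, a log2 fold change of -0.72. Whole reads of Nos2 were not recovered, so its counting interval is not given. C3, of the complement system, was the most abundant, at 180 under AS against 134 under vehicle and a log2 fold change of 0.43. The secreted factors Cxcl1 (0.37), Csf3 (0.23), Csf1 (0.07) and Cxcl5 (0.05) and the stress gene Ier3 (-0.55) were chosen after their values were seen, which are log2 fold changes. The median over all genes was exceeded by 15 of these 28.

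**Figure D4:**
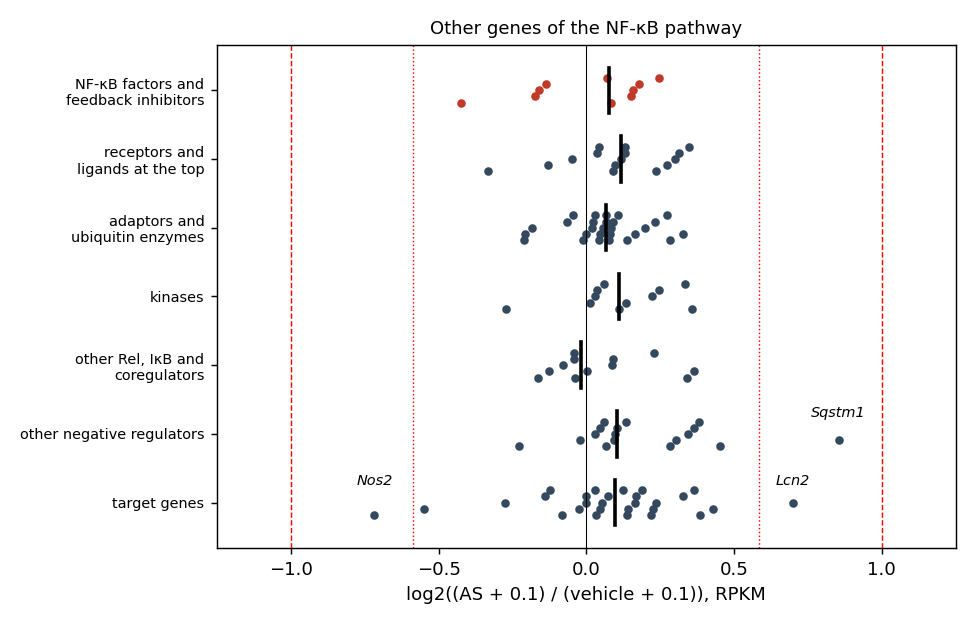
log2 fold change with 0.1 RPKM added (horizontal axis) for the 10 genes (red) and for each of 6 lists of other pathway genes (dark), 1 point per gene, with a black bar for the median; the vertical position inside a row has no meaning, and Traf1 and Ripk2 are in 2 lists. Sqstm1 and Lcn2 at the right and Nos2 at the left are the genes beyond the dotted lines at 1.5-fold, and none is beyond the dashed lines at 1.

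The labelled cell type was checked against its markers. All 10 epithelial markers were analysed, among them Epcam at 335 RPKM under AS against 357 under vehicle, and Krt18, the most abundant, with 707 and 902. The summed RPKM of this list was 1855 and 2365, and its median log2 fold change was -0.22. Of its genes 7 were lower and 3 higher, where 60.9% of all genes were higher. Krt14 (-0.96) and Krt19 (-0.73) were lower by more than 1.5-fold, and Krt8 (-0.54), Krt7 (-0.52) and Krt18 (-0.35) were lower as well on the log2 scale. The 3 higher genes were Esrp1 (0.47), a splicing factor of epithelial cells, and the cell junction genes Cldn4 (0.42) and Cdh1 (0.17). The part of this difference in the values of the NF-κB genes was not tested. Of the leukocyte list, 6 of 10 genes were analysed, with a summed RPKM of 29.9 under AS against 33.5 under vehicle, of which Cd68 made up 24.0 and 28.1. Ptprc, which defines leukocytes, was at 0.116 and 0.114 in the libraries, near 0, and Adgre1, Aif1 and Cd3e were not analysed here. Of 7 fibroblast genes 4 were analysed, with a sum of 6.08 and 5.67 that was mostly Pdgfra, and 0 of 5 endothelial genes were.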

How the data were processed

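RNA of 4T1 cells was sequenced after a stranded mRNA preparation, with 1 library per condition. The authors deposited 1 table with the RPKM of each library, and the unit was found from its values. The mean log2 CPM over both libraries, also deposited by the authors, was used as a check only. The 3 other columns hold the authors' own comparison and were not used. The submitters' processing notes list fastp 0.23.4, STAR 2.5.3a, featureCounts and a human build (GRCh38), although the symbols are murine. Summed exon lengths of GENCODE M21 (GRCm38) turned both RPKM columns into whole reads (tolerance 0.02) for 12718 of 13502 genes with a single entry (94.2%), including all 10 described, and the implied library sizes were 44909684 (AS) and 50820728 (vehicle). No gene was listed at 0. Recovery and fold changes were run on data simulated with the same exon lengths, which checks the code and not its fit to the deposited values. Computation used Python 3.11 and scipy 1.17.1, and TMM was written in Python. No molecular identifiers are named, so intervals cover counting error only. Genes were named by a rule: the 10 genes, and from each list every gene beyond 1, up to 4 each way beyond 1.5-fold and the most abundant; any others were chosen for their role or after their values were seen. The genes and lists were chosen with earlier results of these data known.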

Additional observations from a re-analysis of the deposited data

How the results depend on the processing

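The fold changes of all 10 genes kept their sign under the 7 alternatives (0 or 1 RPKM added, a minimum mean of 1 RPKM, centring on the median of all genes, TPM, upper-quartile scaling and TMM on the recovered reads), and none passed 1.5-fold. Adding RPKM to both values or setting a minimum mean cannot change a sign. The scalings, centring included, move the AS values of all genes alike, by between -0.068 and 0.057 on the log2 scale. A kept sign thus shows only that the fold change was larger than such a shift. The largest size was that of Tnfaip3 with TMM, -0.49. Nfkbia ran from 0.00069 with TMM to 0.13 with TPM. The counts over all genes moved. Beyond 1, 94 genes were higher and 44 lower, against 38 and 16 with 1 RPKM added, and 161 higher with 0 RPKM added. Beyond 1.5-fold, 505 were higher and 286 lower, against 189 and 130 with 1 RPKM added, and 336 higher with a minimum mean of 1 RPKM. Of the pathway lists, 2 genes rather than 1 were lower by over 1.5-fold with centring, upper-quartile scaling or TMM, the second being Ier3. With 0 RPKM added, 3 rather than 2 were higher by over 1.5-fold, the third being Tnip3 at 1.15. With the longest coding transcript as length, chosen after seeing the data, the Nfkb2 to Nfkb1 ratio was 1.69 with AS and 1.60 with the vehicle. Bcl3, Relb and Birc3 are limited most by depth. No paired analysis was possible because each condition has 1 library.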
